A study of Bos taurus with 12 samples.

Results

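Glycosaminoglycans are the long sulfated sugar chains that make a core protein into a proteoglycan, and 42 genes for the enzymes and suppliers that build and sulfate them were followed here in bovine mesenchymal stem cells, stromal cells of the marrow with the capacity to form cartilage, bone or fat. The genes were listed by their step in the pathway, not by their signal, and each was read from a probe set that carries that gene's symbol alone in the platform annotation. Values were obtained for 40 of the 42. CHPF2 and HS2ST1 were represented only by probe sets annotated to several genes, so they are not reported. Each of the 40 had 1 such probe set, out of 26773 on the array and 18010 named genes. Of the 40, 6 act on the linker, 5 on the chondroitin chain, 10 on its modification, 5 on the heparan chain, 7 on its modification, 2 are extracellular sulfatases and 5 supply sulfate or sugar.

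Cells were taken from the femur and tibia marrow of 3 juvenile cattle under 6 months old, grown for 1 passage at atmospheric oxygen and then expanded for a week under 4 conditions. These were hypoxia (2% oxygen) with 10 ng/mL TGF-β3, a growth factor used to start cartilage formation, hypoxia without it, normoxia (21% oxygen) with 10 ng/mL TGF-β3, and normoxia without it. All 4 groups shared the same serum-containing basal medium, and each held 3 arrays, 1 per donor. The comparisons ask what preconditioning with low oxygen, with the growth factor and with both did to gene expression before any cartilage culture.

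Chondroitin and heparan sulfate chains start on a serine of the core protein with a short linker, which is then extended either as chondroitin sulfate, part of which is turned into dermatan sulfate, or as heparan sulfate. Sulfotransferases decorate the growing chain with sulfate from an activated donor, PAPS, which the cell makes from imported sulfate. In cartilage, chondroitin sulfate chains on aggrecan hold water and resist compression, while heparan sulfate on syndecans and glypicans binds growth factors. The roles given below are those established for the human and mouse enzymes.

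Signals are deposited log2 values, a change is the log2 difference of 2 group means ± its standard error in limma's fit (n = 3 arrays per group), and adjusted p-values are limma's over all 26773 probe sets, with a call at or under 0.05. Array medians lay between 6.59 and 6.66, and precision is limited by there being 12 arrays. Since the 3 donors recur in each group, values from a second fit that holds donor as a block are added where they change a call. Comparisons averaged over the other factor set 6 arrays against 6, but these come from 3 donors measured in both conditions, and the fit without the block treats them as independent. All 7 mesenchymal stromal markers (CD44, NT5E, THY1, ENG, ALCAM, ITGB1 and PDGFRB) had clear signals, with mean log2 signals of 9.66 to 13.2 over the 12 arrays. Of 6 measured haematopoietic markers, only the pan-leukocyte gene PTPRC lay below the lower quartile of the array on all 12. The 6 had mean log2 signals of 4.20 to 7.34, and 2 of them lay above the median probe set.

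With TGF-β3, some enzymes of the set rose and others fell. EXT1, a subunit of the heparan sulfate polymerase, and CHSY3, a chondroitin synthase, rose by 1.69-fold and 1.78-fold at 21% oxygen, and CSGALNACT2, which starts chondroitin chains, fell 1.49-fold. The same 3 genes passed the test at 2% oxygen, with 1.75-fold and 1.77-fold for EXT1 and CHSY3 and a fall of 1.53-fold for CSGALNACT2. Hypoxia called none of the 40.

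In numbers, TGF-β3 at 21% oxygen called 3 of 40 members (2 higher, 1 lower), or 7.5%, beside 2.75% of all probe sets (1.28% higher, 1.47% lower). At 2% oxygen it called 3 of 40 (2 higher, 1 lower), beside 3.05% of all probe sets (1.45% higher, 1.61% lower). Averaged over oxygen it called 7 of 40 (4 higher, 3 lower), or 17.5%, beside 9.64% of all probe sets (4.65% higher, 4.99% lower), and with donor as a block 8 (4 higher, 4 lower), beside 14.8% (7.3% higher, 7.47% lower). When dim probe sets were left out, the averaged comparison called 8 of the 34 members left, beside 22.9% of the probe sets kept. With donor as a block, 5 members were called at 21% oxygen (3 higher, 2 lower), beside 6.35% of probe sets (2.95% higher, 3.41% lower), and 5 at 2% oxygen (3 higher, 2 lower), beside 6.98% (3.25% higher, 3.73% lower). The median change over the 40 was -0.01 at 21% oxygen and -0.01 at 2% oxygen, against 0.01 over all probe sets in each case. The members as a set were thus centred near no change. At 21% oxygen 18 of 40 lay above 0 and at 2% 19 of 40, beside 52.7% and 51.7% of all probe sets.

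**Figure D1:**
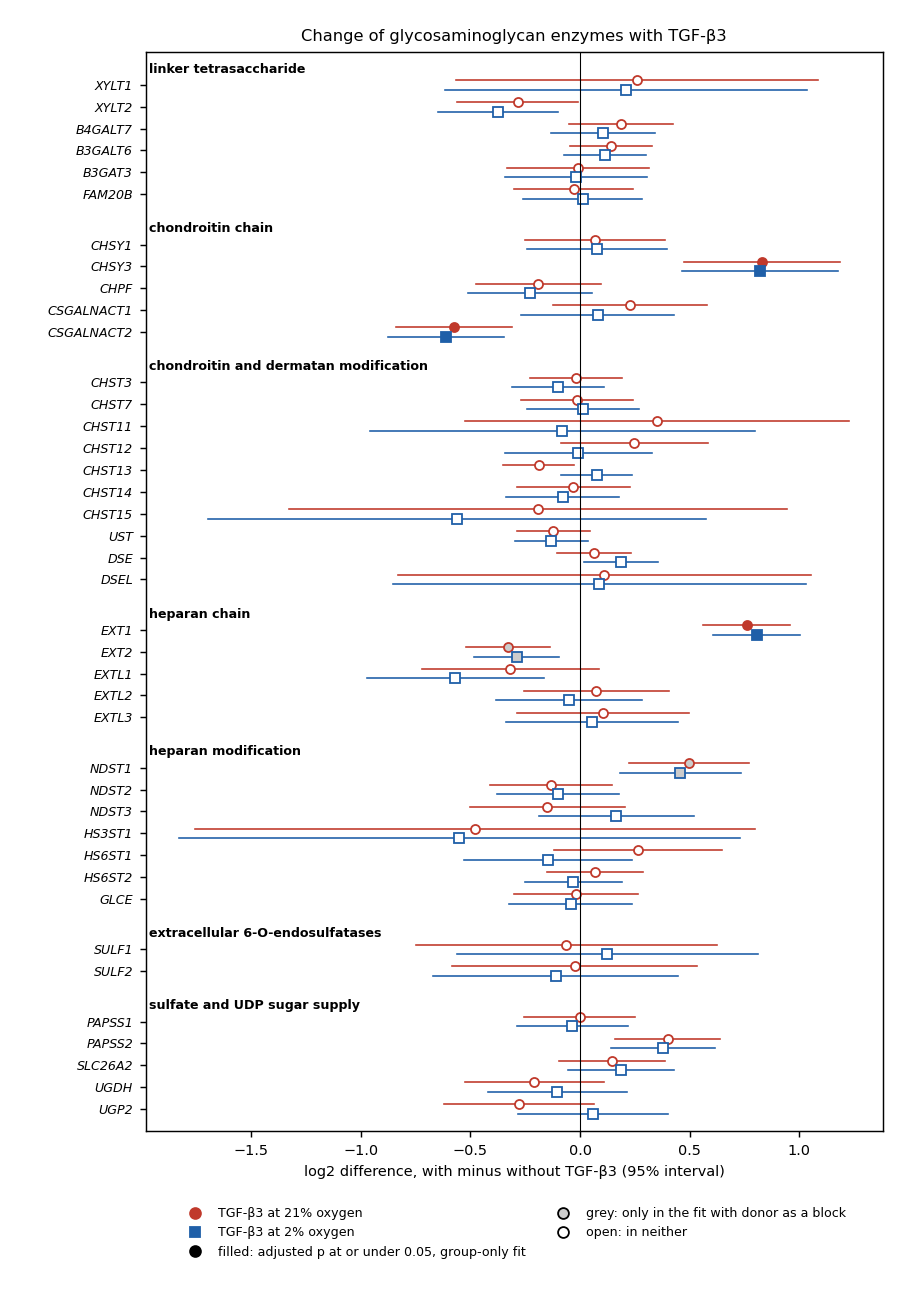
Log2 difference between cells with and without TGF-β3 for the 40 enzymes and suppliers, grouped by step, at 21% oxygen (red circles) and at 2% oxygen (blue squares); lines are 95% intervals of limma's fit without a donor term. EXT1 and CHSY3 stand right of 0 and CSGALNACT2 left of it at both oxygen tensions, while the wide intervals of XYLT1, CHST11, CHST15, DSEL and HS3ST1 belong to genes that differ between donors.

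These counts, like those over all probe sets, depended on single donors and arrays. Without donor 2, 0 members were called at either oxygen tension, and without donor 1 or donor 3 only EXT1 was. The share of all probe sets called fell too, to 0.108% at 21% oxygen and 0.183% at 2% without donor 2, to 0.355% and 0.433% without donor 1, and to 1.67% and 2.04% without donor 3. At 21% oxygen, 1 member was left without the donor 2 or donor 3 array of normoxia alone or the donor 3 array of normoxia with TGF-β3, and 2 members without the donor 1 array of normoxia with TGF-β3, EXT1 among them each time. At 2% oxygen, 1 member was left without the donor 1 or donor 3 array of hypoxia with TGF-β3 or the donor 2 array of hypoxia alone, and 2 without the donor 3 array of hypoxia alone. Averaged over oxygen, the 7 calls became 4, 3 and 5 without donors 1, 2 and 3.

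Some marker lists of other cell types also differed with TGF-β3. The log2 of the summed signals of 5 endothelial markers was 8.80 to 9.30 in hypoxia with TGF-β3 and 8.02 to 8.13 in hypoxia alone, and 8.65 to 9.15 in normoxia with TGF-β3 and 7.91 to 7.98 in normoxia alone. Of those 5, PECAM1 alone lay above the median probe set, CDH5, VWF, KDR and TIE1 had group means of 4.46 to 6.27, and KDR was below the lower quartile on all 12 arrays. PECAM1 was 2.12 ± 0.17 higher with TGF-β3 averaged over oxygen (limma adjusted p = 3.86e-05). The summed stromal list was lower, at 14.6 to 14.7 in hypoxia with TGF-β3 against 14.9 to 15.0 in hypoxia alone, and at 14.6 to 14.7 in normoxia with TGF-β3 against 14.9 to 15.0 in normoxia alone. The osteoclast list, led by CTSK, stood at 11.8 to 12.2 in hypoxia with TGF-β3 against 12.4 to 12.8 in hypoxia alone, and at 12.0 to 12.3 in normoxia with TGF-β3 against 12.5 to 13.0 in normoxia alone. The 4 adipocyte markers summed to 8.16 to 8.40 in hypoxia with TGF-β3 against 8.72 to 8.95 in hypoxia alone, and to 7.96 to 8.62 in normoxia with TGF-β3 against 8.43 to 8.84 in normoxia alone, which overlap. These sums do not stand for all genes of a list. Averaged over oxygen, the osteoclast changes ran from -0.56 to 0.05 (median -0.07) and the adipocyte ones from -0.95 to 0.01 (median -0.04). In each list 3 of 4 lay within 0.5 of 0. No haematopoietic or erythroid marker was called in that comparison, also with donor as a block. The 4 chondrocyte markers summed to 10.86 to 10.98 in hypoxia with TGF-β3 against 11.03 to 12.16 in hypoxia alone, and to 10.61 to 10.93 in normoxia with TGF-β3 against 10.49 to 11.44 in normoxia alone. Within that list 3 were higher and 1 lower with TGF-β3 averaged over oxygen. MATN3 rose by 0.69 ± 0.19 (limma adjusted p = 0.0425), and COL2A1 at 0.82 ± 0.37, COMP at 0.41 ± 0.13 and ACAN at -1.52 ± 0.47 were called only with donor as a block (0.0218, 0.0448 and 6.86e-05 against 0.211, 0.0747 and 0.0695). The part of these markers in the changes below was not tested, and in RNA from whole cultures fewer cells of a type and less RNA per cell cannot be told apart.

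The heparan chain gave the clearest change of the set. EXT1 (probe set 12723279), which with EXT2 forms the polymerase that adds glucuronic acid and N-acetylglucosamine in turn, had signals of 10.65, 10.87 and 10.73 in donors 1 to 3 in normoxia with TGF-β3, against 10.07, 9.94 and 9.97 in normoxia alone. In hypoxia with TGF-β3 they were 10.60, 10.82 and 10.67, against 9.97, 9.84 and 9.85 in hypoxia alone. All 6 arrays with TGF-β3 lay above all 6 without it, and donor 2 had the largest difference at both oxygen tensions.

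The rise of EXT1 was 0.76 ± 0.09 at 21% oxygen (limma adjusted p = 0.00146) and 0.81 ± 0.09 at 2% oxygen (adjusted p = 0.000884), and 0.78 ± 0.06 averaged over oxygen (adjusted p = 3.74e-05). Without donor 2 it was no longer called at 21% oxygen (adjusted p = 0.0981) or at 2% oxygen (adjusted p = 0.0772). The averaged rise was called in all 12 runs that left out an array and all 3 that left out a donor.

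EXT2 (probe set 12726674), the partner subunit, went the other way. Its signals were 9.80, 9.91 and 9.88 in normoxia with TGF-β3, against 10.07, 10.26 and 10.24 in normoxia alone, and 9.86, 9.97 and 9.90 in hypoxia with TGF-β3, against 10.18, 10.32 and 10.10 in hypoxia alone. All 6 arrays with TGF-β3 lay below all 6 without it. EXT2 fell by 0.31 ± 0.06 averaged over oxygen (limma adjusted p = 0.00916), a change called in all 12 runs without an array but in none of the 3 without a donor. At 21% oxygen the change of -0.33 ± 0.09 was called only with donor as a block (adjusted p = 0.0296 against 0.0773 without it), and so was the change of -0.29 ± 0.09 at 2% oxygen (0.0462 against 0.112).

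The 3 other heparan chain genes were not called. EXTL1, an N-acetylglucosaminyltransferase related to the EXT proteins, changed by -0.44 ± 0.13 averaged over oxygen (limma adjusted p = 0.0565), with a difference of -0.99 in donor 3 against -0.18 and -0.17 in donors 1 and 2. It was called with donor as a random block (adjusted p = 0.0394) and when dim probe sets were left out (0.0309). EXTL3, which starts the heparan chain, gave 0.08 ± 0.13 averaged over oxygen, and EXTL2, which can add a first hexosamine to the linker, gave 0.01 ± 0.11. The heparan chain step thus held 1 rise, 1 fall and 3 genes without a call when averaged over oxygen.

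Among the genes that modify heparan sulfate, NDST1 was the one called. It codes for an N-deacetylase/N-sulfotransferase that opens the way to all later sulfation of the chain (probe set 12879017). Signals were 10.31, 10.22 and 10.52 in normoxia with TGF-β3, against 9.92, 9.88 and 9.76 in normoxia alone, and 10.62, 10.34 and 10.60 in hypoxia with TGF-β3, against 10.30, 9.94 and 9.94 in hypoxia alone. Within each oxygen tension the groups did not overlap, although the donor 1 array of hypoxia alone reached the level of the arrays with TGF-β3 at 21% oxygen.

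NDST1 rose by 0.48 ± 0.09 averaged over oxygen (limma adjusted p = 0.00613), and it was no longer called without donor 2 (0.0596) or donor 3 (0.111). At 21% oxygen the difference of 0.50 ± 0.13 was called only with donor as a block (adjusted p = 0.0313 against 0.0637), as was that of 0.46 ± 0.13 at 2% oxygen (0.0405 against 0.0788). The related NDST2 and NDST3 changed by -0.12 ± 0.09 and 0.01 ± 0.11 averaged over oxygen and were not called.

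HS3ST1, a 3-O-sulfotransferase that makes the antithrombin-binding site of heparan sulfate, differed more between donors than between conditions. Its signals were 5.81, 4.44 and 5.43 in normoxia with TGF-β3, against 6.56, 4.87 and 5.69 in normoxia alone, and 5.80, 4.73 and 5.74 in hypoxia with TGF-β3, against 7.07, 4.86 and 5.99 in hypoxia alone. The groups overlapped, and donor 2 was below the lower quartile of the array in all 4 conditions. Averaged over oxygen the change of -0.51 ± 0.41 was called only with donor as a block (limma adjusted p = 0.0334 against 0.546 without it), and its size was -1.01 in donor 1 against -0.28 and -0.25 in donors 2 and 3. HS6ST1 and HS6ST2, the 6-O-sulfotransferases, and GLCE, which epimerises glucuronic to iduronic acid, were not called in any comparison, and HS6ST2 was below the lower quartile on all 12 arrays.

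Among the chondroitin genes, CHSY3 and CSGALNACT2, both of chain building, were called with TGF-β3. CHSY3 (probe set 12886108), one of the synthases that extend the chain, had signals of 9.36, 9.03 and 9.46 in normoxia with TGF-β3, against 8.61, 8.30 and 8.45 in normoxia alone. In hypoxia with TGF-β3 they were 9.40, 9.13 and 9.51, against 8.60, 8.23 and 8.75 in hypoxia alone. All 6 arrays with TGF-β3 lay above all 6 without it, with donor 2 the lowest in each group.

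The rise of CHSY3 was 0.83 ± 0.16 at 21% oxygen (limma adjusted p = 0.0212), 0.82 ± 0.16 at 2% oxygen (0.0205) and 0.83 ± 0.11 averaged over oxygen (0.00109). The averaged rise was called in all 12 runs without an array and all 3 without a donor, whereas neither of the rises at 1 oxygen tension was called in a run without a donor. CHSY1, the related synthase, gave 0.07 ± 0.10 averaged over oxygen, with a 95% interval of -0.15 to 0.30. CHPF, which works with the synthases, changed by -0.21 ± 0.09 and was not called (adjusted p = 0.203).

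CSGALNACT2 (probe set 12826085), which adds the first N-acetylgalactosamine and so commits the linker to chondroitin, had signals of 8.65, 9.08 and 8.78 in normoxia with TGF-β3, against 9.26, 9.45 and 9.52 in normoxia alone. In hypoxia with TGF-β3 they were 8.88, 9.04 and 8.95, against 9.45, 9.70 and 9.55 in hypoxia alone. Each donor was lower with TGF-β3 at both oxygen tensions, and all 6 arrays with it lay below all 6 without it. The changes were -0.58 ± 0.12 at 21% oxygen (limma adjusted p = 0.0295), -0.61 ± 0.12 at 2% oxygen (0.0205) and -0.59 ± 0.09 averaged over oxygen (0.00134). The averaged fall was called in each of the 15 runs that left out an array or a donor. CSGALNACT1, the other starting enzyme, had low signals, below the lower quartile on 9 of 12 arrays, and changed by 0.15 ± 0.11 averaged over oxygen (adjusted p = 0.5).

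**Figure D2:**
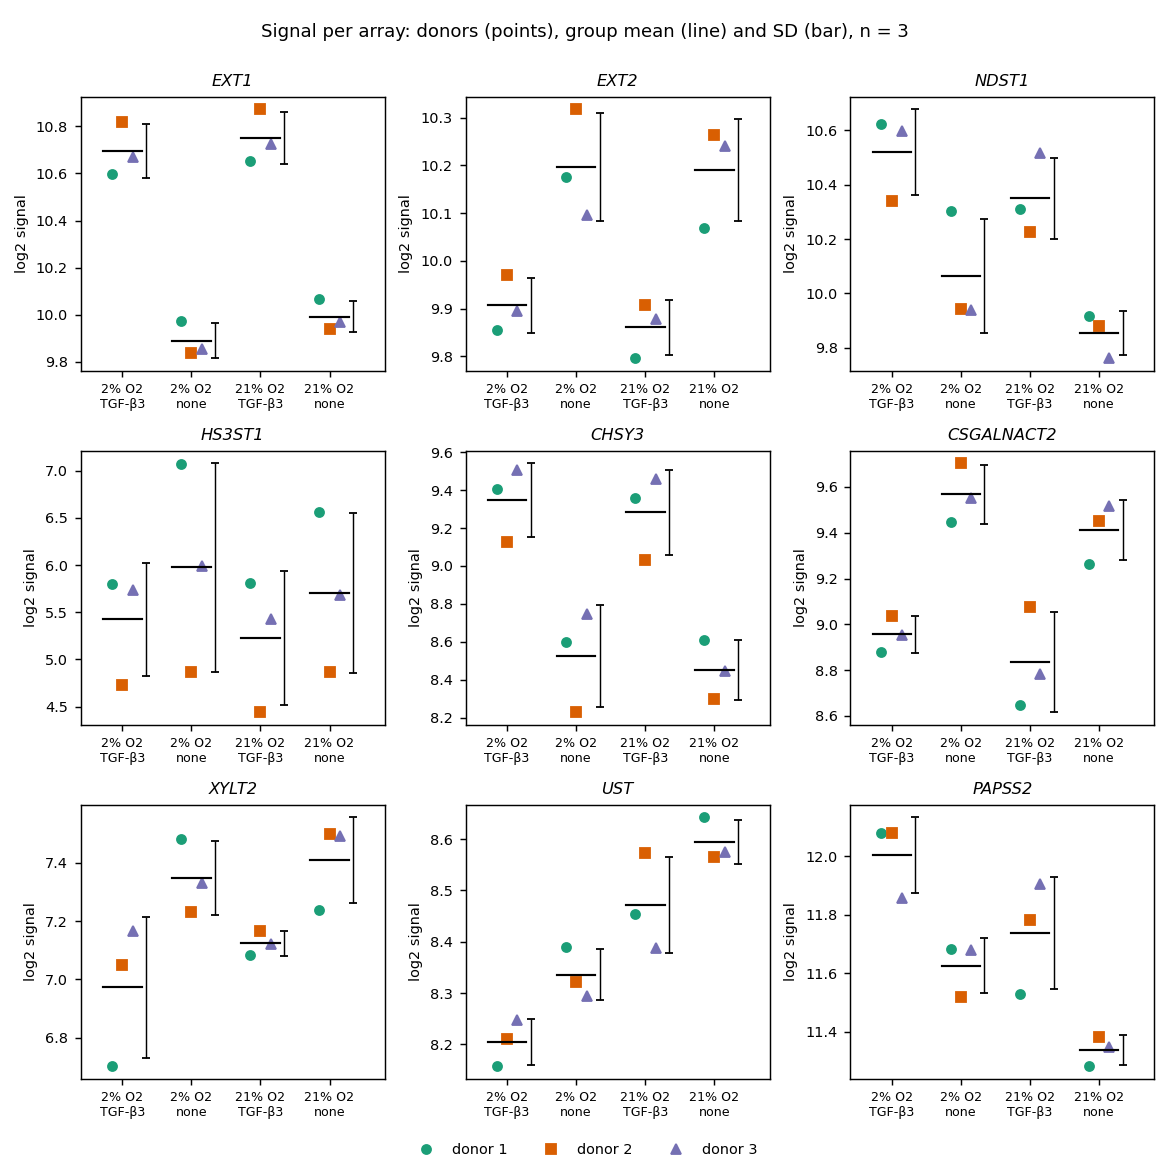
Log2 signal of 9 enzymes on each of the 12 arrays, with hypoxia left of normoxia and TGF-β3 left of no TGF-β3 within each; point shapes mark donors, horizontal lines group means and vertical bars the SD (n = 3). EXT1 and CHSY3 are higher, and CSGALNACT2, EXT2 and XYLT2 lower, on all 6 arrays with TGF-β3, PAPSS2 has its highest mean in hypoxia with TGF-β3, UST is lowest there, and HS3ST1 separates by donor.

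None of the 10 genes that sulfate or epimerise chondroitin and dermatan was called with TGF-β3 at either oxygen tension or on average. Their averaged changes ran from -0.38 to 0.14 with a median of -0.03. CHST3, a 6-O-sulfotransferase, changed by -0.06 ± 0.07, with a 95% interval of -0.21 to 0.09. CHST11, the main 4-O-sulfotransferase, and CHST15, which adds a second sulfate to 4-sulfated units, had wider errors, at 0.14 ± 0.28 and -0.38 ± 0.37.

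CHST15 was split between donors. Its signals were 8.94, 7.26 and 7.04 in normoxia with TGF-β3, against 8.54, 7.61 and 7.66 in normoxia alone, and 8.06, 6.88 and 6.46 in hypoxia with TGF-β3, against 7.87, 7.25 and 7.97 in hypoxia alone. It was higher with TGF-β3 in donor 1 (0.30) and lower in donors 2 and 3 (-0.36 and -1.07), so the groups overlapped. DSE, the dermatan sulfate epimerase, was higher with TGF-β3 in all 3 donors averaged over oxygen, but by 0.13 ± 0.05 and without a call (limma adjusted p = 0.198), and its paralogue DSEL gave 0.10 ± 0.30.

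Of the 6 linker genes, XYLT2 alone was called. It codes for 1 of the xylosyltransferases that place the first sugar on the core protein (probe set 12767875). Signals were 7.08, 7.17 and 7.12 in normoxia with TGF-β3, against 7.24, 7.50 and 7.49 in normoxia alone, and 6.70, 7.05 and 7.17 in hypoxia with TGF-β3, against 7.48, 7.23 and 7.33 in hypoxia alone. All 6 arrays with TGF-β3 lay below the other 6, and the largest single difference, -0.78, was that of donor 1 in hypoxia. XYLT2 fell by 0.33 ± 0.09 averaged over oxygen (limma adjusted p = 0.0387), which held in only 3 of 12 runs without an array and in none of 3 without a donor.

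XYLT1, the other xylosyltransferase, showed a donor difference instead. Its mean over the 4 conditions was 10.23 in donor 1, 10.30 in donor 2 and 9.37 in donor 3. Averaged over oxygen the change with TGF-β3 was 0.26, 0.49 and -0.04 in donors 1 to 3, and 0.24 ± 0.27 overall (limma adjusted p = 0.697). Without donor 3 it reached an adjusted p of 0.0491. The transferases that complete the linker, B4GALT7, B3GALT6 and B3GAT3, changed by 0.15 ± 0.08, 0.13 ± 0.06 and -0.01 ± 0.10, and FAM20B, a kinase that phosphorylates the linker xylose, by -0.01 ± 0.09. None of the 4 was called.

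In sulfate and sugar supply, PAPSS2 was the gene that moved. It makes PAPS, the sulfate donor of every sulfotransferase, and its loss in humans disturbs cartilage and skeletal growth (probe set 12820541). Signals were 11.53, 11.78 and 11.91 in normoxia with TGF-β3, against 11.28, 11.38 and 11.35 in normoxia alone, and 12.08, 12.08 and 11.86 in hypoxia with TGF-β3, against 11.68, 11.52 and 11.68 in hypoxia alone. At each oxygen tension the arrays with TGF-β3 lay above those without it. The highest values were those of donors 1 and 2 in hypoxia with TGF-β3, and the lowest those of normoxia alone.

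PAPSS2 rose by 0.39 ± 0.08 with TGF-β3 averaged over oxygen (limma adjusted p = 0.00868). The differences of 0.40 ± 0.11 at 21% oxygen and 0.38 ± 0.11 at 2% oxygen were not called, with adjusted p = 0.0836 and 0.0934 and, with donor as a block, 0.0735 and 0.0831. Some other runs did call PAPSS2. At 21% oxygen these were the intensity trend and the runs without dim probe sets or the donor 1 array of normoxia with TGF-β3. At 2% oxygen it was only the run without dim probe sets. The averaged call was lost without donor 1 (0.0579) or donor 2 (0.178). PAPSS1, the other PAPS synthase, changed by -0.02 ± 0.08, with a 95% interval of -0.20 to 0.16. SLC26A2, the sulfate importer whose human mutations cause skeletal dysplasias, gave 0.17 ± 0.08 (adjusted p = 0.239), and it was called only without the donor 3 array of hypoxia alone (adjusted p = 0.0429). UGDH and UGP2, which lead to UDP-glucuronic acid, gave -0.16 ± 0.10 and -0.11 ± 0.11. The extracellular sulfatases SULF1 and SULF2, which trim 6-O-sulfate from finished heparan chains, gave 0.03 ± 0.22 and -0.07 ± 0.18.

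Counted over all 40 members and averaged over oxygen, 2 (EXT1 and CHSY3) had 6 arrays with TGF-β3 above the 6 without it and 3 (XYLT2, CSGALNACT2 and EXT2) had them below, beside 6.53% of all probe sets without overlap (3.09% higher, 3.44% lower).

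Hypoxia gave no call among the 40 members in any fit, with or without a donor block. Over all probe sets the called share was 0.0% in hypoxia with TGF-β3, 0.00374% in hypoxia without it (all higher) and 0.0486% averaged over TGF-β3 (0.0448% higher, 0.00374% lower). With donor as a block the shares were 0.0224% (all higher), 0.0112% (0.00747% higher, 0.00374% lower) and 0.31% (0.261% higher, 0.0486% lower), in the same order. No member had its 6 hypoxic arrays apart from the 6 normoxic ones, beside 0.381% of all probe sets. By limma without the block, 2 of 40 members had an unadjusted p under 0.05 in hypoxia with TGF-β3, 3 in hypoxia without it and 2 averaged, the last being UST and PAPSS2. Over all probe sets the shares were 4.3%, 5.4% and 6.87%, near those of the members in that fit. With donor as a block, 2, 5 and 7 of 40 members had an unadjusted p under 0.05 by limma, in the same order. Beside these stood 1862, 2253 and 2832 of 26773 probe sets. The averaged changes ran from -0.43 to 0.28 with a median of 0.04, and 27 of 40 lay above 0. Over all probe sets the median was -0.0025, and 49.0% lay above 0. For 32 of the 40 the 95% interval of the averaged change lay within 0.5 of 0 on the log2 scale, and for 38 within 1.

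UST, the sulfotransferase that places 2-O-sulfate on the uronic acid of chondroitin and dermatan (probe set 12898360), came nearest. Its signals were 8.39, 8.32 and 8.29 in hypoxia alone, against 8.64, 8.57 and 8.57 in normoxia alone. With TGF-β3 they were 8.16, 8.21 and 8.25 in hypoxia, against 8.45, 8.57 and 8.39 in normoxia. The hypoxic arrays lay below the normoxic ones both without and with TGF-β3, in all 3 donors. The averaged difference of -0.26 ± 0.05 had an unadjusted p of 0.000457 but did not pass the adjustment in limma (adjusted p = 0.169, or 0.11 when donor was a block).

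PAPSS2 was 0.28 ± 0.08 higher in hypoxia averaged over TGF-β3, with differences of 0.48, 0.22 and 0.14 in donors 1 to 3, and did not pass (limma adjusted p = 0.401). SULF1, averaged over TGF-β3, was higher by 0.26, 0.25 and 0.25 in donors 1 to 3, but against a standard error of 0.22 in the fit without donor (adjusted p = 0.902, or 0.505 when donor was a block). Donors 1 and 3 were higher in hypoxia both without and with TGF-β3. Donor 2 had 10.56 in hypoxia against 10.60 in normoxia without TGF-β3, and 11.31 against 10.77 with it. GLCE gave 0.17 ± 0.09 and NDST1 0.19 ± 0.09, neither of them called. EXT1, CHSY3 and CSGALNACT2 changed with hypoxia by -0.08 ± 0.06, 0.07 ± 0.11 and 0.14 ± 0.09, none of them called.

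**Figure D3:**
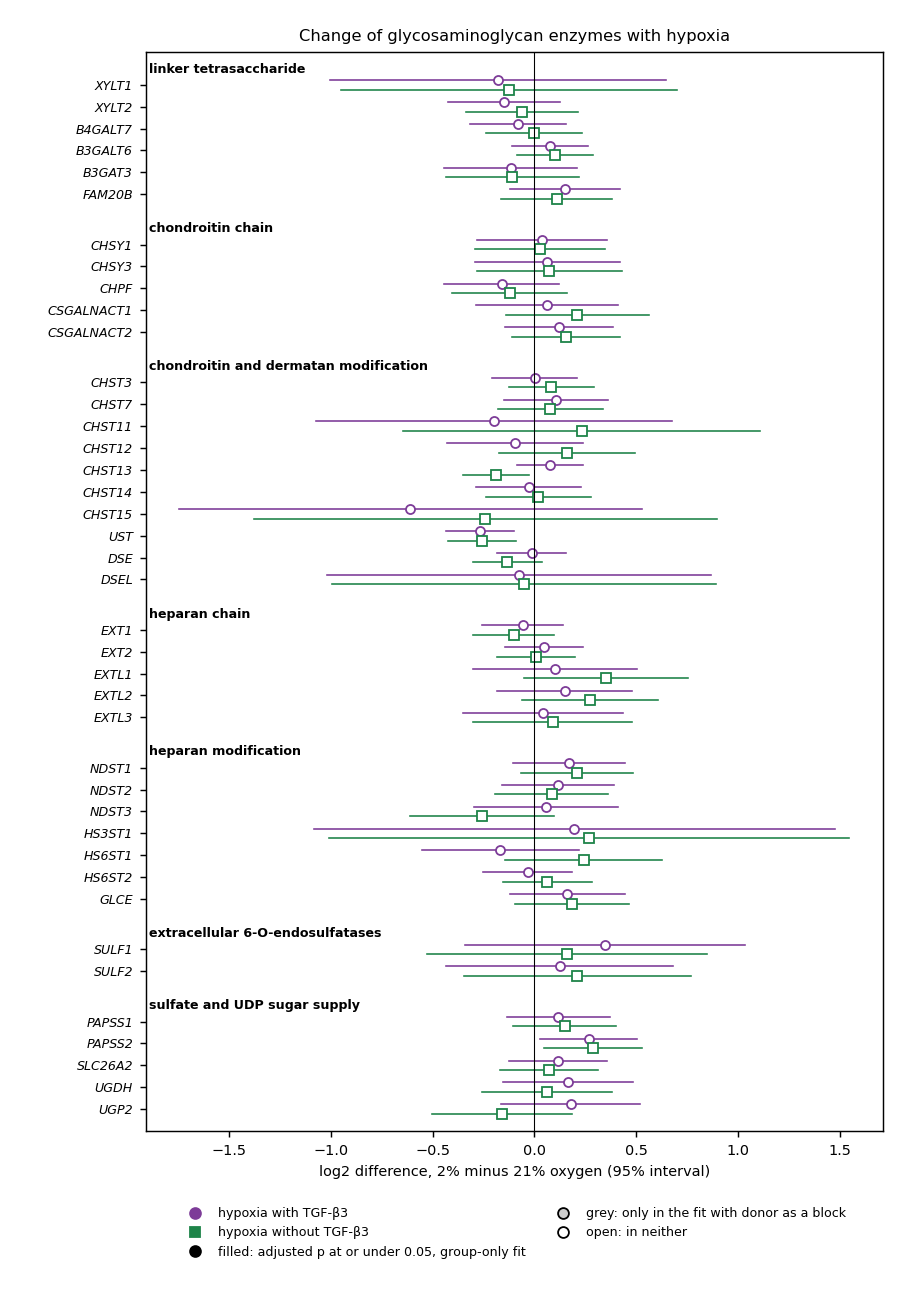
Log2 difference between 2% and 21% oxygen for the 40 enzymes and suppliers with TGF-β3 (purple circles) and without it (green squares); lines are 95% intervals of limma's fit without a donor term. No symbol is filled, since no member was called, and UST lies left of 0 and PAPSS2 right of it in both comparisons.

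Hypoxia and TGF-β3 together, set against normoxia alone, called 5 of 40 members (4 higher, 1 lower), or 12.5%, beside 3.74% of all probe sets (1.89% higher, 1.86% lower). With donor as a block it called 7 (4 higher, 3 lower), beside 7.64% (3.8% higher, 3.84% lower). PAPSS2 rose 1.59-fold (0.67 ± 0.11, limma adjusted p = 0.00682), and its 3 arrays at 11.86 to 12.08 stood clear of the 3 at 11.28 to 11.38. NDST1 also rose 1.59-fold (0.67 ± 0.13, adjusted p = 0.0137), EXT1 by 1.63-fold (adjusted p = 0.00183) and CHSY3 by 1.86-fold (adjusted p = 0.0115).

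UST fell by 0.39 ± 0.08 (limma adjusted p = 0.0166), at 8.16, 8.21 and 8.25 in hypoxia with TGF-β3 against 8.64, 8.57 and 8.57 in normoxia alone. Neither treatment alone had called it, but its mean was lower with each. The means were 8.59 in normoxia alone, 8.47 with TGF-β3 alone, 8.34 in hypoxia alone and 8.21 with both. CSGALNACT2, at -0.45 ± 0.12, was called only with donor as a block (adjusted p = 0.0103 against 0.0658), as was EXT2 at -0.28 ± 0.09 (0.0475 against 0.116). The count of 5 fell to 1 without donor 1 (EXT1), to 1 without donor 2 (CHSY3) and to 2 without donor 3 (EXT1 and PAPSS2). It was 2 without the donor 2 array of normoxia alone, and 3 without the donor 3 array of that condition or the donor 1 array of hypoxia with TGF-β3. UST was called in 7 of 12 runs without an array and in none without a donor. Most of these 12 calls or losses split by group: UST stayed called whenever the array left out was from neither compared group. Among runs without an array of a compared group, it was called only without the donor 3 array of hypoxia with TGF-β3.

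The interaction, the difference between the TGF-β3 changes at 2% and 21% oxygen, was called for 0 of 40 members and for 0.0% of all probe sets, also with donor as a block. With the block, 2 members had an unadjusted p under 0.05 by limma, beside 1157 of 26773 probe sets. Without it 1 of 40 members did, beside 2.94% of all probe sets, a like share. That member was CHST13, a chondroitin 4-O-sulfotransferase, whose arrays with TGF-β3 lay below those without it at 21% oxygen (6.59, 6.51 and 6.44 against 6.70, 6.76 and 6.66) and above them at 2% oxygen (6.63, 6.59 and 6.56 against 6.54, 6.55 and 6.46). The interaction of 0.27 ± 0.10 had an unadjusted p of 0.0263 and an adjusted p of 1 by limma. For EXT1 the interaction was 0.05 ± 0.13, with a 95% interval of -0.24 to 0.33, and for CHSY3 it was -0.01 ± 0.23, with an interval of -0.51 to 0.49.

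The variation of each gene over the 12 arrays was split between donor and treatment. Donor was the largest of the 4 terms (donor, TGF-β3, oxygen and their interaction) for 22 of 40 members, or 55.0%, against 48.6% of all probe sets, and its median share was 41.4% in the members against 20.8% over all probe sets. TGF-β3 was the largest term for 13 members, or 32.5%, against 30.5% of all probe sets. The counts of largest terms in the members were thus near those over all probe sets. Donor, with 3 animals, can take up more variation than a term with fewer levels, so it is favoured as the largest. These shares are descriptions without a test.

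At one end stood EXT1, with 95.3% of its variation on TGF-β3 and 0.4% on donor, followed by CHSY3 (84.2% on TGF-β3), CSGALNACT2 (81.8%) and EXT2 (81.7%). At the other stood DSEL, with 91.4% on donor, SULF2 (84.6%), XYLT1 (84.3%), HS3ST1 (78.2%), CHST11 (77.3%) and CHSY1 (75.0%). DSEL had mean signals of 9.91, 8.74 and 9.42 in donors 1 to 3, and CHST11 8.73, 8.25 and 9.29, so no donor was high throughout. Oxygen was the largest term for UST (72.6%) and GLCE (30.3%), and the interaction for CHST13 (55.5%), HS6ST1 (21.4%) and HS6ST2 (6.4%).

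**Figure D4:**
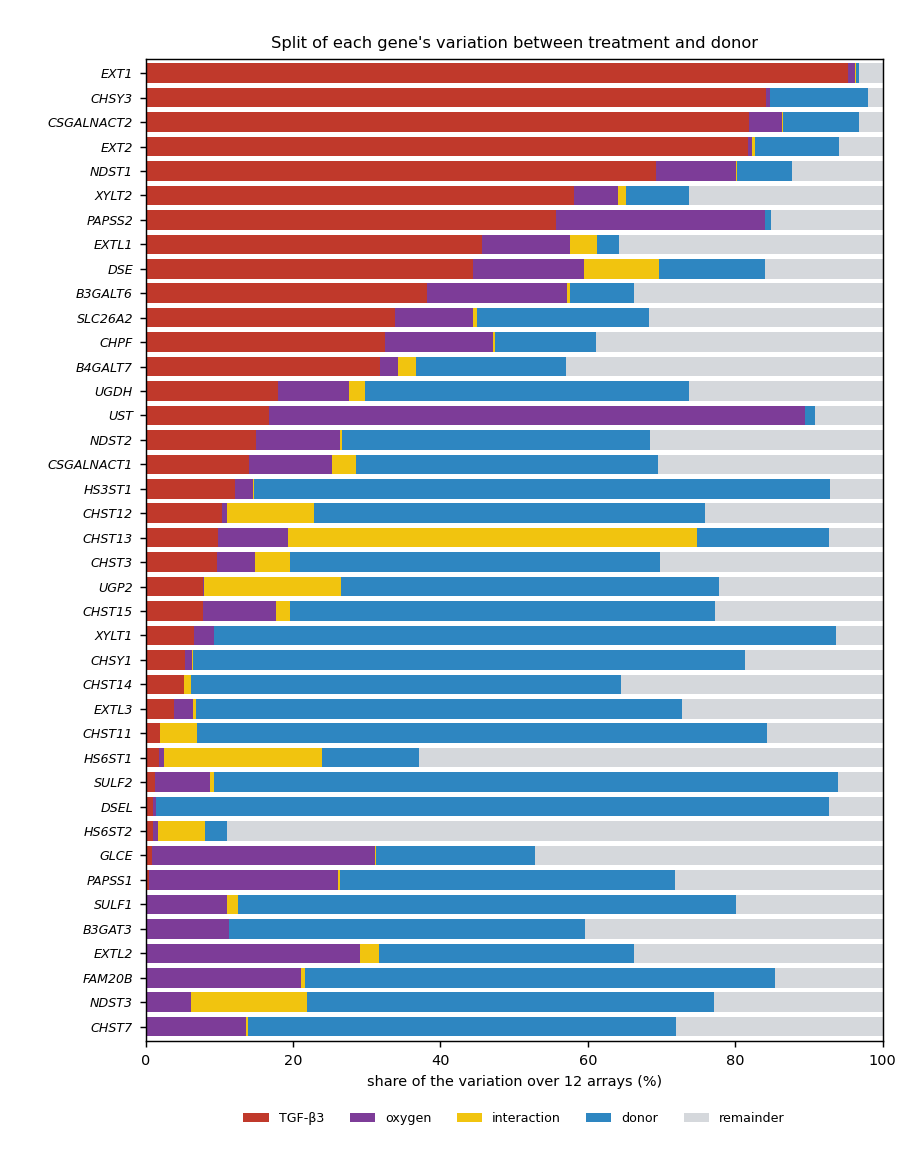
Share of each gene's variation over the 12 arrays (percent, bars adding to 100) that falls on TGF-β3, oxygen, their interaction, donor and the remainder, sorted by the TGF-β3 share. EXT1 at the top is almost wholly TGF-β3, UST is the bar with the large oxygen share, and DSEL, SULF2 and XYLT1 in the lower part are mostly donor.

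Further genes of the pathway, outside the 42, were counted from lists. The counts of TGF-β3 calls averaged over oxygen stand beside 4.65% of all probe sets higher and 4.99% lower, and with donor as a block beside 7.3% and 7.47%. Of 12 other linker and chain enzymes, 4 rose and 0 fell with donor as a block, and 3 rose and 0 fell without it. All 3 are heparan sulfate 3-O-sulfotransferases, like HS3ST1, with changes of 1.01 ± 0.24 for HS3ST4 (limma adjusted p = 0.0227), 0.97 ± 0.24 for HS3ST2 (0.0256) and 0.60 ± 0.11 for HS3ST3B1 (0.00621). HS3ST4 had signals of 8.27, 8.24 and 7.31 in normoxia with TGF-β3, against 7.55, 6.92 and 6.58 in normoxia alone, and 7.92, 8.38 and 7.44 in hypoxia with TGF-β3, against 7.02, 7.11 and 6.31 in hypoxia alone. The call of HS3ST4 held in 5 of 12 runs without an array and 1 of 3 without a donor, that of HS3ST2 in 6 and 0, and that of HS3ST3B1 in 12 and 1.

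Of 8 keratan sulfate genes, 2 rose and 1 fell (9.64% of all probe sets were called in either direction), and CHST6 changed most. With donor as a block 3 rose and 2 fell, beside 14.8% of all probe sets called in either direction. CHST6, a sulfotransferase for N-acetylglucosamine in keratan sulfate, had signals of 9.66, 10.19 and 9.85 in normoxia with TGF-β3, against 7.55, 7.96 and 7.41 in normoxia alone, and 9.40, 9.84 and 9.60 in hypoxia with TGF-β3, against 7.76, 7.42 and 7.85 in hypoxia alone. No array with TGF-β3 came near any without it. CHST6 rose 4.79-fold at 21% oxygen (2.26 ± 0.19, limma adjusted p = 0.000183) and 3.83-fold at 2% oxygen (1.94 ± 0.19, adjusted p = 0.000484), and it was called in all 15 runs without an array or a donor in each comparison. B3GNT2, which extends the poly-N-acetyllactosamine backbone, fell by 0.63 ± 0.10 averaged over oxygen (adjusted p = 0.00295), and ST3GAL1, a sialyltransferase, rose by 0.34 ± 0.08 (0.0252). Both were called in 1 of 3 runs without a donor, that without donor 3, and in 12 and 4 of the 12 runs without an array.

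Among 20 other genes of sulfate and nucleotide sugar supply, 4 rose and 2 fell, with a median of -0.01, beside 4.65% of all probe sets higher and 4.99% lower. With donor as a block 5 rose and 4 fell, beside 7.3% higher and 7.47% lower. GNPNAT1, an enzyme on the way to UDP-N-acetylglucosamine, rose by 0.51 ± 0.10 (limma adjusted p = 0.00683), and SLC35A3, a Golgi transporter of that sugar, by 0.45 ± 0.08 (0.00544). GFPT2, which makes glucosamine 6-phosphate at the head of the same route, fell by 0.51 ± 0.13 (0.032). Without a donor GNPNAT1 and GFPT2 were called in 0 of 3 runs and SLC35A3 in 1, and without an array GFPT2 was called in 4 of 12.

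Of 19 genes of glycosaminoglycan breakdown, 1 rose and 6 fell with TGF-β3 averaged over oxygen, with a median of -0.28 against 0.01 over all probe sets, and with donor as a block 10 were called lower. Over all probe sets 4.65% were called higher and 4.99% lower, or 7.3% and 7.47% with the block. SGSH, the lysosomal sulfatase lost in Sanfilippo syndrome, fell by 0.72 ± 0.10 (limma adjusted p = 0.00133), and GUSB, the lysosomal β-glucuronidase, by 0.45 ± 0.05 (0.000514). GUSB signals were 10.44, 10.33 and 10.23 in normoxia with TGF-β3, against 10.70, 10.85 and 10.79 in normoxia alone, and 10.21, 10.18 and 10.24 in hypoxia with TGF-β3, against 10.65, 10.67 and 10.66 in hypoxia alone. HYAL1, a hyaluronidase with 2 probe sets, fell by 0.55 ± 0.12 (0.0128) on that with the higher mean, and the other is not reported. CEMIP2, a cell-surface protein described as a hyaluronidase, was the exception and rose by 1.06 ± 0.08 (2.7e-05). All 4 of these changes were called in each run without an array. HYAL1 was called in 0 of 3 runs without a donor, GUSB in 2 (adjusted p = 0.0527 without donor 2), and SGSH and CEMIP2 in 3. HEXA, of the same list, changed by -0.58 ± 0.13 with both treatments against neither (limma adjusted p = 0.0279). That change was called in 1 of 3 runs without a donor.

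Of 24 proteoglycan core proteins, 3 rose and 4 fell, and with donor as a block 3 rose and 6 fell, beside 9.64% and 14.8% of all probe sets called in either direction. TGFBR3, or betaglycan, a co-receptor for TGF-β that carries such chains, fell by 1.63 ± 0.30 (limma adjusted p = 0.00557), with signals of 6.48, 6.94 and 7.34 in normoxia with TGF-β3, against 7.96, 8.74 and 9.31 in normoxia alone, and 6.41, 7.01 and 7.54 in hypoxia with TGF-β3, against 7.87, 8.39 and 9.22 in hypoxia alone. GPC6, a glypican, rose by 0.75 ± 0.15 (0.00894). DCN, or decorin, which carries 1 chondroitin or dermatan chain, fell by 0.94 ± 0.13 (0.000917). Each of the 3 was called in all 12 runs without an array, but without donor 2 none was, with adjusted p = 0.129 for TGFBR3, 0.104 for GPC6 and 0.0522 for DCN, and GPC6 was not called without donor 1 (0.0948). Aggrecan (ACAN) gave -1.52 ± 0.47 and was called only with donor as a block (6.86e-05 against 0.0695), while the other 3 measured chondrocyte markers were higher, as given above. CSPG4, of the same list, changed by -0.64 ± 0.13 with TGF-β3 at 2% oxygen (limma adjusted p = 0.0195). That change was called in 0 of 3 runs without a donor. Hypoxia called 0 genes of these 5 lists, without or with the donor block.

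**Figure D5:**
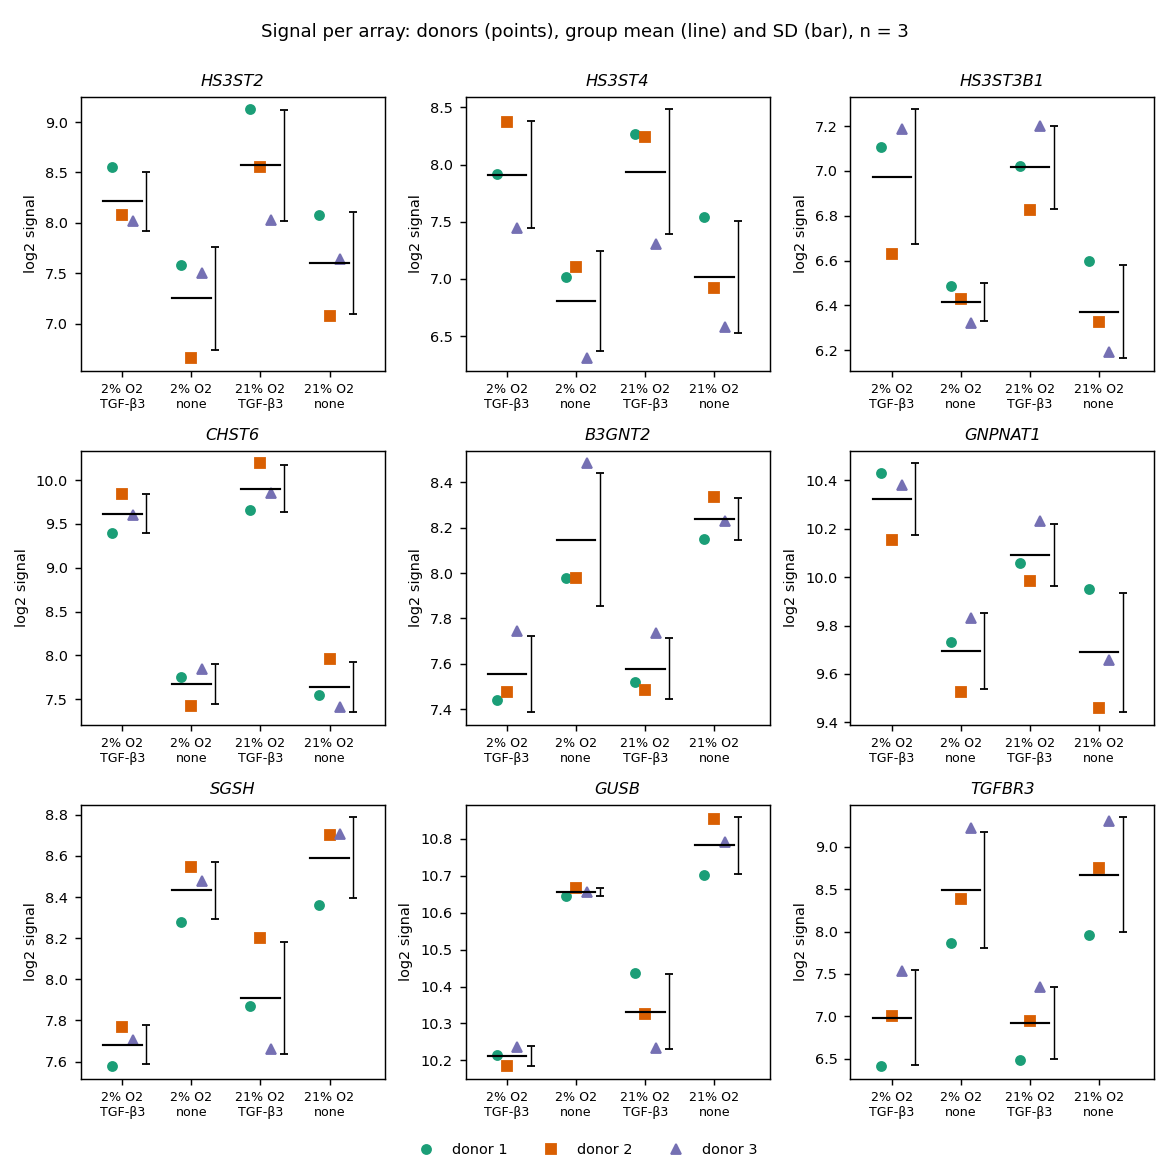
Log2 signal of 9 further pathway genes on each of the 12 arrays, arranged as hypoxia left of normoxia and TGF-β3 left of no TGF-β3 within each; point shapes mark donors, lines group means and bars the SD (n = 3). CHST6 separates fully by TGF-β3, the 3 HS3ST genes are higher with it, and SGSH, GUSB, B3GNT2 and TGFBR3 are lower with it in each donor.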

How the data were processed

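The 12 arrays measured total RNA of bovine mesenchymal stem cells. Normalisation by the authors used RMA (robust multi-array averaging), per the labels, and Partek 6.6 is the tool given in the submitters' processing notes. Their deposited log2 signals were used unchanged; the base was inferred from the range, 2.07 to 14.3, and no detection p-value was used. Of 26773 probe sets, 18457 carried 1 gene symbol in the platform annotation, 688 several and 7628 none.

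All 8 comparisons came from limma (version 3.58.1, under R 4.3.3), fitted to the 4 groups over 12 arrays without a donor term. Benjamini-Hochberg adjustment ran across the 26773 probe sets, with a threshold of 0.05. The test was tried on simulated data. Donor numbers in the titles were taken to mark the same animal, so arrays are paired (the descriptions give donor 3 another number, the same on all 4 of its arrays): deviations from group means correlated at 0.177 to 0.602 within donors and at -0.44 to 0.10 between them. Donor as a fixed block was the alternative fit. Others were a random block, equal medians, quantile normalisation, a filter on dim probe sets, an intensity trend, and leaving out each array and donor.

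Named by rule are members called in either fit, 19 listed members, and up to 3 called genes with the largest change per other list and comparison. Other genes named, and the array values of HS3ST1, CHST15 and CHST13, were chosen after their values were seen. Members and lists were chosen with earlier results of these data known.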

Additional observations from a re-analysis of the deposited data

How the results depend on the processing

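No change turned its direction under any alternative when called. With donor as a replicate block, which uses the pairing by donor, 5 members were called with TGF-β3 at 21% oxygen and 5 at 2%, against 3 each without it; with the block 1701, 1869 and, for both treatments against neither, 2046 of all probe sets were called, against 736, 817 and 1002 without it. The random block gave 5 at 21% and 4 at 2% oxygen, beside 5.16% and 5.82% of all probe sets. The intensity trend gave 6 at 21% and 3 at 2% oxygen, beside 3.34% and 3.68%. Leaving out dim probe sets also takes out 6 members and lessens the adjustment. Of the 34 members left, 6 were called at 21% and 5 at 2% oxygen, beside 8.40% and 8.99% of the probe sets kept. Averaged over oxygen 8 of the 34 were called, beside 22.9%. Leaving out 1 array or 1 donor gave 0 to 4 at each oxygen tension, 1 to 6 for both treatments against neither and 3 to 7 for TGF-β3 averaged over oxygen. Equal medians and quantile normalisation left every count of members as it was, and hypoxia and the interaction called 0 members under every alternative. Using the mean over probe sets was not run, because no member has several. With 3 donors and no detection call, small changes and genes near the background, such as CHST7 and HS6ST2, are not resolved.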
